A study of Homo sapiens with 5 samples.

Results

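This report describes 46 genes of the lysosome in CD133-positive cells sorted from U87 MG, an established human glioblastoma line. They are the hydrolases and membrane proteins of the organelle with the transcription factors TFEB, TFE3 and MITF, and were found by gene symbol among the 46427 genes of the deposited expression table. They comprise 8 membrane proteins, 12 cathepsins, 2 other protein and thioester hydrolases, 11 glycosidases, 4 sulfatases, 6 lipid hydrolases and activators, and the 3 transcription factors. RNA was sequenced from 3 libraries of the CD133-positive cells, titled f2n11_csc and numbered 1, 2 and 3, and from 2 libraries of the untreated line, titled u87_control and numbered 2 and 3. The labels call the sorted cells cancer stem cells and do not say what f2n11 means, and neither CD133-negative nor mock-sorted cells are among the samples. Effects of the sort therefore cannot be told apart from those of CD133. Nothing in the labels says that the libraries came from separate cultures, and the spread that p-values measure may therefore be technical. In bulk RNA, fewer cells of a type and less RNA per cell cannot be told apart.

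The libraries held 17716823 to 27335199 gene counts in CD133-positive cells and 29137978 to 29841238 in controls. The share of counts in the 7SL genes RN7SL1, RN7SL2 and RN7SL3 was 10.9%, 12% and 24.4% in CD133-positive libraries 1, 2 and 3 and 6.29% and 5.71% in controls 2 and 3, so CD133-positive library 3 stood apart. PROM1, which encodes CD133, had 7, 0 and 0 counts in the CD133-positive libraries and 12 and 0 in controls, so the transcript of the sorted marker did not separate the groups. Of the 8 glioma line markers 7 were tested, and VIM, the vimentin gene, was abundant in every library at 3726 to 9559 normalised counts-per-million (CPM). For TNC and NES, 2 of the 7, the log2 fold changes were 2.29 and 1.72 (CD133-positive over control). Among the 7, edgeR's quasi-likelihood test called 2 higher and 0 lower (adjusted p under 0.05), beside 2.20% and 2.40% of all tested genes. Over the 7 tested markers the median log2 fold change was 0.53, but 0.03 with library size alone and -0.16 in transcripts-per-million.

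Lysosomes are acid compartments in which hydrolases take apart proteins, glycans, sulfated sugars and lipids delivered by endocytosis and autophagy. Most soluble hydrolases are tagged with mannose 6-phosphate in the Golgi and handed over by receptors, while the limiting membrane is built from heavily glycosylated proteins such as LAMP1 and LAMP2. TFEB, TFE3 and MITF bind E-box motifs in promoters of many lysosomal genes and are held in the cytoplasm by phosphorylation when mTORC1 is active. In gliomas cathepsins are best known as proteases that can also act outside the cell on matrix proteins.

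The lysosomal genes did not move together. Among the 45 members with counts, CTSS and CTSK fell and CTSF and CD68 rose in CD133-positive cells (edgeR's quasi-likelihood test over 16304 genes, with a Benjamini-Hochberg adjusted p under 0.05). CTSV was called lower too, but it had 0 counts in CD133-positive libraries and passed the filter on low counts through the controls alone. That is 2 members higher and 3 lower, CTSV included, where 2.20% of all tested genes were called higher and 2.40% lower. The remaining member, LAMP3, a LAMP protein of mature dendritic cells, was at 0 counts in each of the 5 libraries (a floor of 3 counts is 0.0822 to 0.227 CPM). The median log2 fold change (CD133-positive over control) was 0.17 over the 45 members, with quartiles of -0.35 and 0.58, and -0.00 over all tested genes. Measured against the control mean, the members' median was 0.06, 0.15 and 0.01 in CD133-positive libraries 1, 2 and 3.

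Without overlap between the groups, 15 members were higher in all CD133-positive libraries and 9 were lower, while 21 overlapped. The same held for 22.7% of all tested genes upward and 27.7% downward. DESeq2, run on the same counts, called 7 members higher and 6 lower against 8.76% and 8.16% of all genes. It added CTSC, CTSO, FUCA1, GLB1 and MAN2B1 to the higher members and ASAH1, CTSH and CTSZ to the lower ones. At an unadjusted p under 0.05 edgeR had 8 members higher and 6 lower, beside 12.2% and 13.6% of all genes. In both counts the lower members included CTSV, CTSZ and CTSH, which passed the filter on low counts through the controls alone. CTSS and CTSK were called lower by DESeq2 in each of the 5 fits that left out 1 library, a check chosen once the data were known.

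The calls rested on which libraries and which scale were used. Without CD133-positive library 3, edgeR called 13 members higher and 9 lower, beside 15.4% and 16.8% of all genes. The 9 included CTSV, CTSZ and CTSH, which passed the filter through the controls alone. Without CD133-positive library 1, CD133-positive library 2, control 2 or control 3 it called 0 members, with 9, 8, 4 and 4 higher and 6, 6, 5 and 4 lower at an unadjusted p under 0.05. Over all genes 23.5%, 24.0%, 10.6% and 10.4% had such a p in either direction. DESeq2 called 7, 7, 1 and 0 members higher in those 4 fits, beside 6.24%, 6.79%, 1.83% and 1.78% of all genes. It called 4, 5, 3 and 3 lower, CTSV included, beside 6.27%, 5.51%, 0.818% and 0.834%. Values are relative to TMM scaling (trimmed mean of M values). With library size alone the median of all genes moved to -0.40 and with TPM (transcripts-per-million) to -0.64, so that 39 of 45 members had negative values in TPM. On that scale limma-trend called 0 members higher and 7 lower, beside 0.577% and 9.20% of all genes, with 0 higher and 13 lower at an unadjusted p under 0.05. The 7 were ASAH1, CTSH, CTSK, CTSL, CTSS, CTSV and CTSZ. Of these CTSH, CTSV and CTSZ passed the filter through the controls alone. Without overlap in TPM, 0 members were higher and 28 lower, beside 4.10% and 63.2% of all genes.

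**Figure D1:**
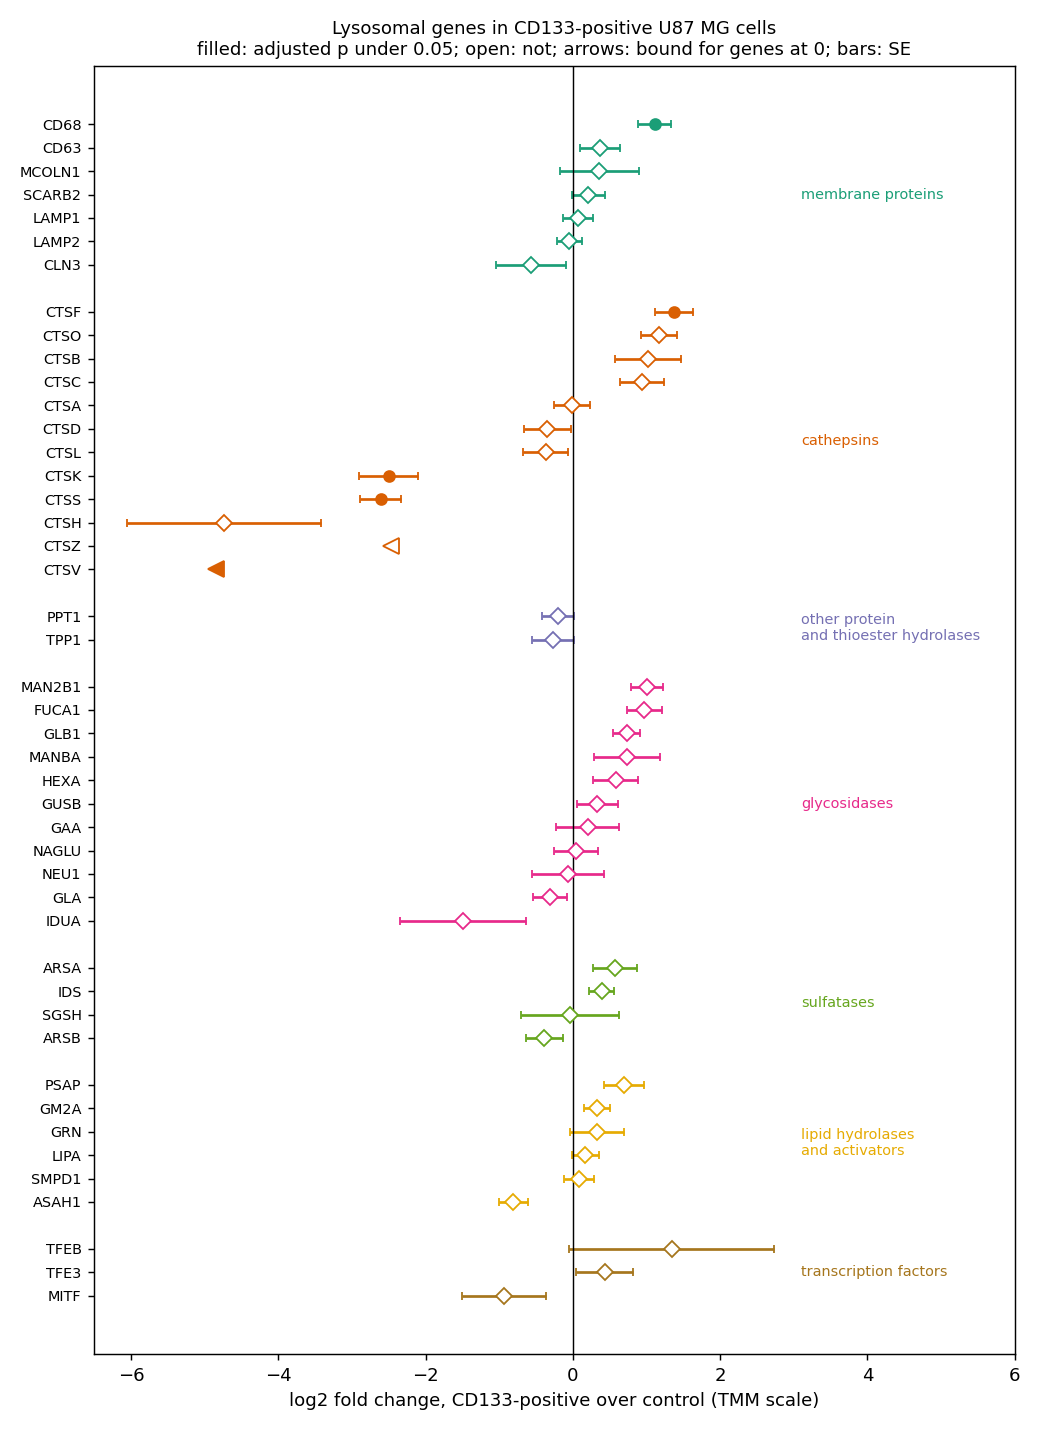
Log2 fold change on the TMM scale, CD133-positive over control, for the 45 detected members by class (3 CD133-positive and 2 control libraries). Bars are the standard error (SE), filled marks passed edgeR's adjusted p of 0.05, and arrows show the bound for genes with 0 counts in CD133-positive libraries. Cathepsins spread from at least 28.7-fold lower (CTSV) to a log2 fold change of 1.37 (CTSF), while LAMP1 and LAMP2 lie near 0. With TPM, CD68 and CTSF kept a positive sign but were not called, and CTSB, CTSC, GLB1, HEXA, MANBA, PSAP and 14 others turned negative.

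Cathepsins were the class with the widest spread. Of 12 tested, 1 was called higher and 3 lower (CTSV included), beside 2.20% and 2.40% of all tested genes. At an unadjusted p under 0.05, 3 were higher and 5 lower, beside 12.2% and 13.6% of all genes. DESeq2 called the same numbers, 3 and 5, beside 8.76% and 8.16%. In both counts the 5 lower genes included CTSV, CTSZ and CTSH, which passed the filter through the controls. CTSS encodes cathepsin S, an elastinolytic cysteine protease that stays active at neutral pH and trims the invariant chain of MHC class II (gene 1520, chr1:150730188-150765778, GRCh38.p14). It had 26.6, 23.3 and 42.1 CPM in CD133-positive libraries 1, 2 and 3, against 192 and 181 CPM in controls 2 and 3. Each CD133-positive library lay far below either control. The gene was 6.10-fold lower (log2 fold change -2.61 ± 0.28 SE, edgeR adjusted p = 0.0159), and the log2 value lay between -2.90 and -2.44 when any 1 library was left out.

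CTSK, the gene of the collagen-degrading cathepsin K of osteoclasts, lies next to it (gene 1513, chr1:150796208-150808260). CTSK had 19.3, 24.2 and 48.3 CPM in CD133-positive libraries, against 169 and 176 CPM in controls. As for CTSS, library 3 was the highest of the CD133-positive libraries and still well under the controls. CTSK was 5.65-fold lower (log2 fold change -2.50 ± 0.40 SE, edgeR adjusted p = 0.0305), with -2.98 to -2.26 when any 1 library was left out.

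The genes CTSS and CTSK are separated by 30429 bases. Their neighbours were looked at after these values had been seen. Within 250000 bases of the pair 14 other genes were tested, 13 had negative log2 fold changes, and the median was -0.80 with a range of -3.56 to 1.94. Over all 1621 tested genes of chromosome 1 the median was -0.14. Of these neighbours 2 were called lower and 0 higher: ECM1, a secreted matrix protein gene (log2 fold change -1.38), and CERS2, which encodes a ceramide synthase (-1.43), both at an edgeR adjusted p of 0.0474. Of all tested genes 2.40% were called lower and 2.20% higher. The DNA copy number of the region was not measured.

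CTSV, which encodes a cathepsin L relative best known from thymus and testis, had 0 counts in all 3 CD133-positive libraries, against 189 and 147 counts (5.61 and 4.03 CPM) in controls. Taking a floor of 3 counts per library, it was at least 28.7-fold lower. CTSZ, whose product is a carboxypeptidase, also had 0 counts in CD133-positive libraries, against 20 and 46 counts (0.594 and 1.26 CPM) in controls. This was at least 5.52-fold lower and was not called by edgeR. CTSH, an aminopeptidase gene, had 0, 2 and 0 counts in CD133-positive libraries, against 37 and 29 in controls. The ratio of summed normalised counts was 0.0364 (exact 95% interval 0.00432 to 0.137, counting error only), and edgeR did not call it. CTSV, CTSZ and CTSH all passed the filter through the controls, where they are high, so their tests add nothing to these counts. The floors in this text, like the exact interval of CTSH, cover counting error only. The other 95% intervals come from the edgeR fit and include the spread between libraries.

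CTSL, the gene closest in sequence to CTSV and the most abundant cathepsin of the controls per length, had 259, 240.03 and 446 CPM in CD133-positive libraries, against 422 and 390.1 CPM in controls. Libraries 1 and 2 lay below both controls and library 3 above them, so the groups overlapped (log2 fold change -0.37, 95% interval -1.13 to 0.39, edgeR adjusted p = 0.517). Without library 3 the value was -0.70 and passed (adjusted p = 0.00111). In TPM the groups did not overlap, at 171, 154 and 134 TPM in CD133-positive libraries, against 395 and 400 TPM in controls. On that scale CTSL was called lower (-1.38, limma-trend adjusted p = 0.0260), as were 9.20% of all genes. How reads shared by CTSL and CTSV were assigned is not given in the sources used here.

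CTSF moved the other way. It encodes cathepsin F, a cysteine protease with a long propeptide, mutated in a form of neuronal ceroid lipofuscinosis (gene 8722, chr11:66563464-66568606). It had 24.96, 32.3 and 38.9 CPM in CD133-positive libraries, against 11.9 and 13.0 CPM in controls. All CD133-positive libraries were higher than both controls, 2.58-fold over the groups (log2 fold change 1.37 ± 0.26 SE, edgeR adjusted p = 0.0445). The value was 0.93 with library size alone and 0.36 in TPM, and the call was lost on both scales. DESeq2 lost it without control 2 (adjusted p = 0.141) and without control 3 (0.0906).

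CTSO, a little-studied cysteine cathepsin gene, had 23.4, 22.6 and 29.8 CPM in CD133-positive libraries, against 10.3 and 12.2 CPM in controls. The groups did not overlap, and the log2 fold change of 1.17 ± 0.24 SE did not pass (edgeR adjusted p = 0.0511) and was 0.18 in TPM. CTSB, an abundant cathepsin with endo- and carboxypeptidase activity, had 478, 491 and 1165 CPM in CD133-positive libraries, against 339 and 362 CPM in controls. Library 3 stood far above the other 4, and the log2 fold change of 1.02 ± 0.45 SE (-0.04 in TPM) did not pass (edgeR adjusted p = 0.217). Without library 3 it was 0.47 and passed (adjusted p = 0.00438). CTSC, the dipeptidyl peptidase that activates granule serine proteases, had 120.03, 108 and 198 CPM in CD133-positive libraries, against 73.7 and 74.5 CPM in controls. Its log2 fold change was 0.94 (edgeR adjusted p = 0.123) and -0.06 in TPM.

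CTSD, the main aspartic protease of lysosomes, had 122, 161 and 75.9 CPM in CD133-positive libraries, against 153 and 153 CPM in controls. The groups overlapped and the difference lay between -1.13 and 0.42 on the log2 scale (95% interval, estimate -0.35, edgeR adjusted p = 0.540). CTSA, the carboxypeptidase that also shields beta-galactosidase and neuraminidase, had a log2 fold change of -0.01 (95% interval -0.58 to 0.56), which was 0.01 with RLE scaling. With library size alone CTSD and CTSA had -0.70 and -0.37, and in TPM -1.35 and -0.97. In TPM both were lower in every CD133-positive library than in either control, as were 63.2% of all tested genes.

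**Figure D2:**
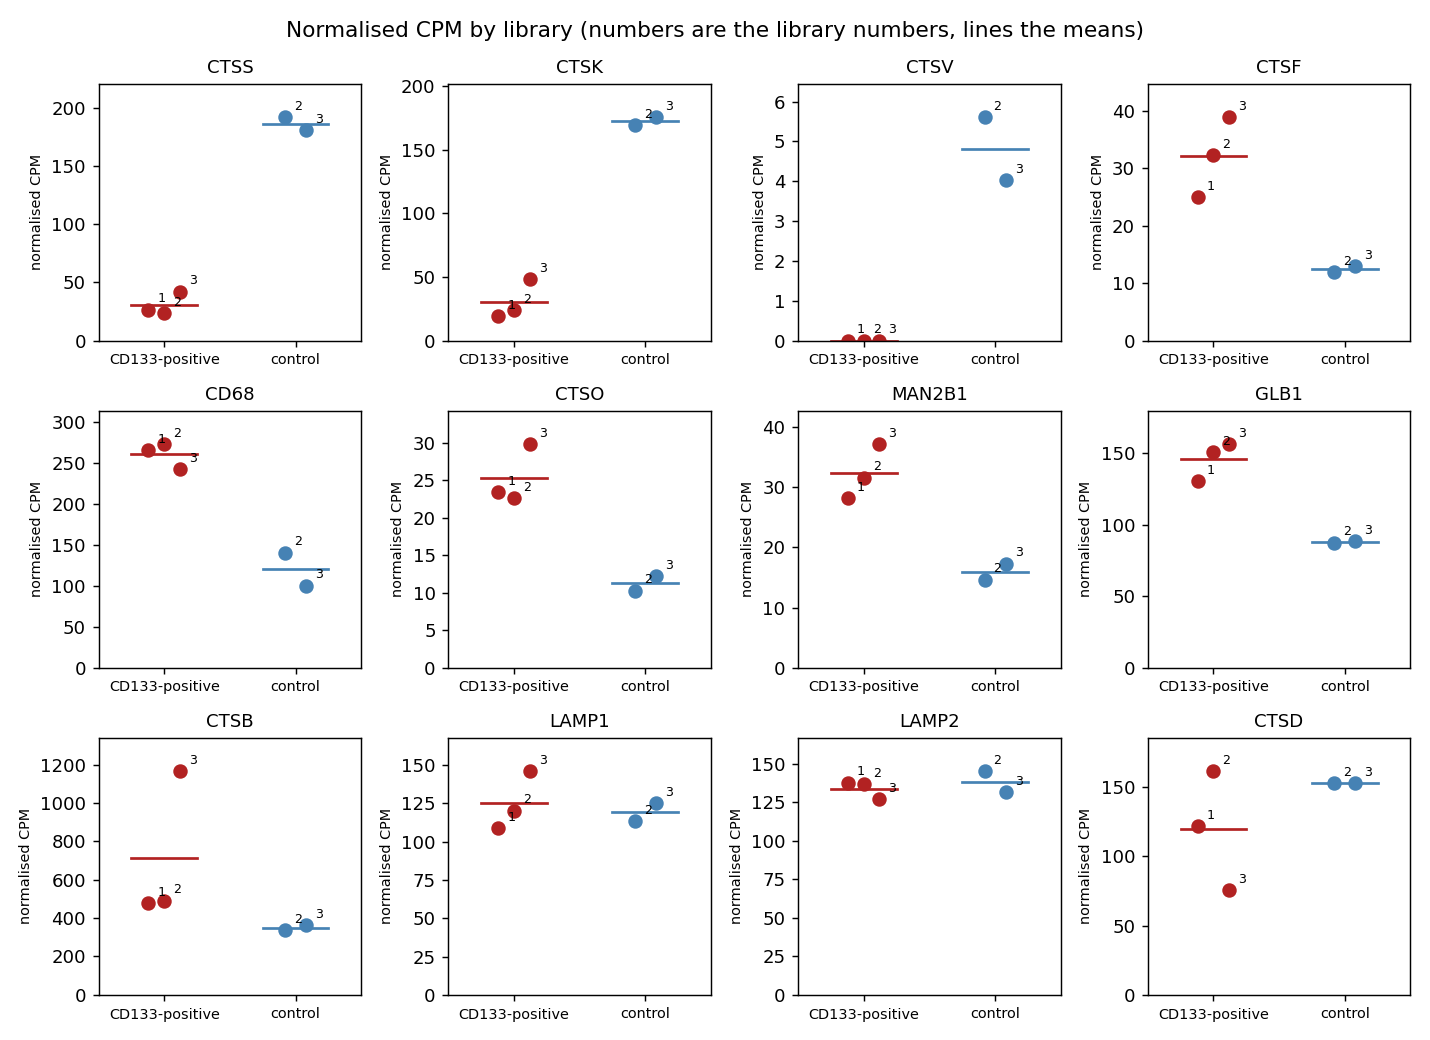
Normalised CPM of 12 members in each library, CD133-positive left of control, with means as lines and library numbers beside the points. CTSS and CTSK lie at 19.3 to 48.3 CPM in CD133-positive libraries, below controls at 169 to 192 CPM, and CTSV is at 0. CTSF, CD68, CTSO, MAN2B1 and GLB1 lie above both controls on this TMM scale (GLB1 turned negative in TPM), CTSB is set apart by library 3, and LAMP1, LAMP2 and CTSD overlap. In TPM LAMP1, LAMP2 and CTSD did not overlap and were lower in CD133-positive libraries.

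Shares within a library do not depend on scaling between libraries, but each depends on the sum over all 12 genes. Of the summed TPM of the 12 cathepsins, CTSK made up 2.84% ± 0.598 in CD133-positive libraries (SD, n = 3) and 15.2% ± 0.472 in controls (SD, n = 2). CTSS made up 1.22% ± 0.121 in CD133-positive libraries and 6.83% ± 0.256 in controls. CTSB took 28.4% ± 6.85 in CD133-positive libraries and 13.1% ± 0.659 in controls. The shares of CTSC (10.4% and 4.94%), CTSF (2.51% and 0.873%) and CTSO (1.40% and 0.557%) were also higher in every CD133-positive library than in either control. The summed cathepsin TPM was 494 ± 82.0 in CD133-positive libraries and 1069 ± 71.6 in controls, while CTSB had 136 ± 7.41 TPM and 141 ± 16.5 TPM and CTSC 50.9 ± 7.48 TPM and 52.9 ± 5.37 TPM. In TPM, the larger shares of CTSB and CTSC thus stood on a smaller sum in CD133-positive libraries, with their own TPM about level. That scale put 63.2% of all tested genes lower in every CD133-positive library than in both controls. On the TMM scale CTSB and CTSC had log2 fold changes of 1.02 and 0.94, and the cathepsin sum was not taken there. CTSL held 31.2% in CD133-positive libraries and 37.2% in controls, and CTSD 10.1% and 10.7%. With 3 libraries against 2, the smallest one-sided p of an exact permutation test is 0.1, and none was run on these shares.

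**Figure D3:**
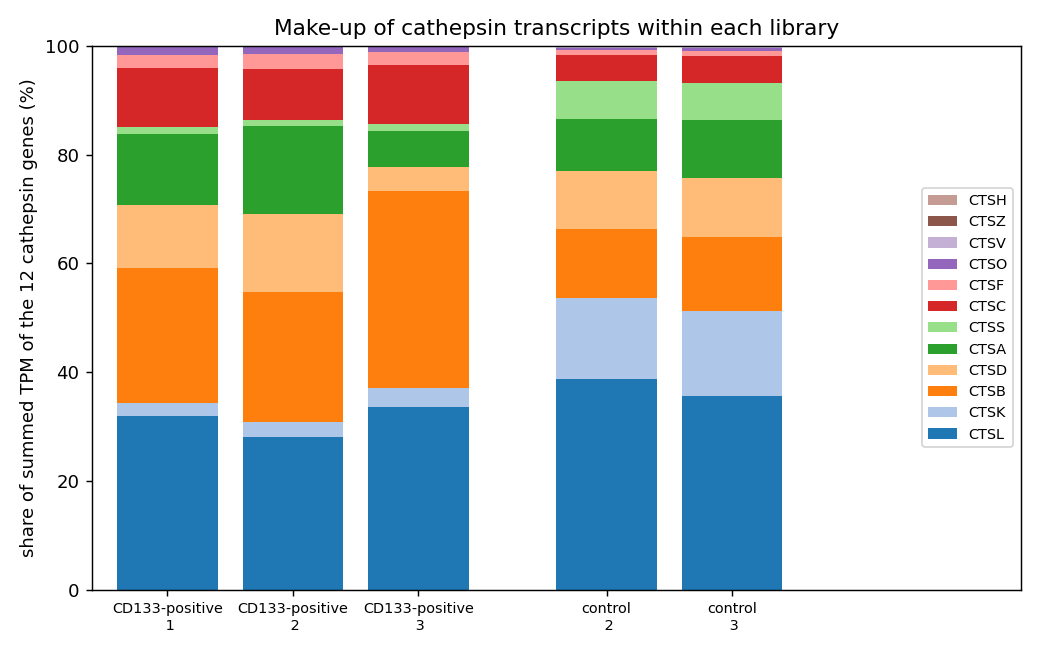
Share of each gene in the summed TPM of the 12 cathepsins (vertical axis, percent) in each CD133-positive and control library. The CTSK and CTSS bands shrink to 2.84% and 1.22% in CD133-positive libraries, against 15.2% and 6.83% in controls, while CTSB and CTSC take larger shares of a smaller sum (494 TPM in CD133-positive libraries and 1069 TPM in controls). In TPM 63.2% of all tested genes were lower without overlap between the groups.

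The promoters of members whose RNA changed are shown beside those of the standard markers LAMP1 and CTSD, since TFEB, TFE3 and MITF act through E-boxes close to the start site. RefSeq windows of GRCh38.p14 (250 bases before to 50 after a start) were matched for 33 members. The others, ARSA, ASAH1, CTSB, CTSK, CTSO, CTSS, HEXA, LAMP2, LAMP3, MANBA, NAGLU, PSAP and SGSH, were not analysed here. Each line gives 1 window of 300 bases, 5′ to 3′ on the gene's strand, with matches on either strand to the motif CACGTG, the longer motif TCACGTG or the variant motif TCATGTG in capitals. The windows are chr11:66568557-66568856 (minus strand) for CTSF, chr17:7579388-7579687 (plus) for CD68 and chr9:97039093-97039392 (minus) for CTSV. Those of LAMP1 and CTSD are chr13:113296989-113297288 (plus) and chr11:1763878-1764177 (minus).
CTSF: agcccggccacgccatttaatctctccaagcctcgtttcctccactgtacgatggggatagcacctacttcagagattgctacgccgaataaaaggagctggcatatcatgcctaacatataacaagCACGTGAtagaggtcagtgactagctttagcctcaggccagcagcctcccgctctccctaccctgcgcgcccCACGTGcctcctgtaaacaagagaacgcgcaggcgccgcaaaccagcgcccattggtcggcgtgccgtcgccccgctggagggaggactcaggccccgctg
CD68: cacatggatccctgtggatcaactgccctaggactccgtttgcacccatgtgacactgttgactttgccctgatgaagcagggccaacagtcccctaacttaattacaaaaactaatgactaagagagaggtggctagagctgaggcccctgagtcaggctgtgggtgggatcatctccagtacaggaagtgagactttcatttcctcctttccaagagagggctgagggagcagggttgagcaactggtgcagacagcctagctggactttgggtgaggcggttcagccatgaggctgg
CTSV: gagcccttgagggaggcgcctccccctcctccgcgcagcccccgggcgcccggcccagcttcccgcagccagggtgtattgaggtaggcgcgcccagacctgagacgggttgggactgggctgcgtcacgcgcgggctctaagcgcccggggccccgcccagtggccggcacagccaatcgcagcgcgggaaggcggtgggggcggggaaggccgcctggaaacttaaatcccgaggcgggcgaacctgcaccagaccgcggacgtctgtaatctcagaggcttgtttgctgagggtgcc
LAMP1: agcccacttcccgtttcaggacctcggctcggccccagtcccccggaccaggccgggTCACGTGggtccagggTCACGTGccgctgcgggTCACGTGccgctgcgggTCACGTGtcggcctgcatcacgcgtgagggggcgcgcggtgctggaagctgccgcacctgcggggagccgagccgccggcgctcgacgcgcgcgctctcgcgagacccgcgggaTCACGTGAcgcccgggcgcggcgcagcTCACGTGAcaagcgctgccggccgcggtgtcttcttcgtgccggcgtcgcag
CTSD: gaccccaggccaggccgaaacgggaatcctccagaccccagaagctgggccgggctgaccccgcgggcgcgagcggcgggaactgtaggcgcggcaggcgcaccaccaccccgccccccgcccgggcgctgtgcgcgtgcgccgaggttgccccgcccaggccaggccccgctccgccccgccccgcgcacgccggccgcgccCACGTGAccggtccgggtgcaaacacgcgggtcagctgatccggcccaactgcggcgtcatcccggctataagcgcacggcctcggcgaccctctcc

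The CTSF window held 2 CACGTG sites, starting at positions -123 and -51 from the start site, of which the first was also a TCACGTG match on the opposite strand. LAMP1 had 6 CACGTG sites and CTSD 1, at -47, while the CD68 and CTSV windows held none of the 3 motifs. The CTSV window ends at 97039392, inside the span of the gene, whose 5′ end lies at 97039643. Sequence at that outer end was not searched. Among the 33 members with a window, 10 (30.3%) had CACGTG, as did 8.77% of all 27305 genes and 7.26% of all 35116 windows. These were ARSB, CD63, CLN3, CTSA, CTSD, CTSF, GAA, LAMP1, MCOLN1 and NEU1. TCACGTG, which contains CACGTG, was found in 9 members (27.3%), beside 4.49% of all genes and 3.71% of windows. TCATGTG was found in 6 members (18.2%), which were CD63, CTSA, GRN, PPT1, SCARB2 and TPP1, beside 3.59% of all genes and 2.92% of windows. The 9 members with TCACGTG had a median log2 fold change of -0.01 (range -0.57 to 1.37), and the 24 without it 0.27, with CTSV, CTSZ and CTSH among them. A match is a string of letters, not a bound site.

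Of the membrane proteins 1 of 7 tested members was called, both by edgeR and by DESeq2 and also at an unadjusted p under 0.05. It was higher, as were 2.20% of all tested genes by edgeR, 8.76% by DESeq2 and 12.2% at an unadjusted p under 0.05. CD68 encodes a LAMP-family sialomucin of late endosomes that is used as a macrophage marker (gene 968, chr17:7579638-7582111). It had 266, 273 and 242 CPM in CD133-positive libraries, against 141 and 100.15 CPM in controls. Every CD133-positive library was above both controls, 2.16-fold over the groups (log2 fold change 1.11 ± 0.22 SE, edgeR adjusted p = 0.0479). Its value was 0.73 with library size alone and 0.17 in TPM, where it was not called, and DESeq2 lost the call without control 3 (adjusted p = 0.185). CD68 made up 17.3%, 17.4% and 11.5% of the summed TPM of the membrane proteins in CD133-positive libraries, against 10.8% and 7.63% in controls.

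Since CD68 is high in macrophages, 16 macrophage and microglia markers were read beside it. Their summed level was 6.50 to 14.9 CPM in CD133-positive libraries and 9.34 to 12.9 CPM in controls. AIF1, TYROBP, C1QA, C1QB, C1QC and CX3CR1 had 0 counts in all libraries. Of the 5 markers tested, edgeR called 0, and at an unadjusted p under 0.05 as in DESeq2 1 was higher. That marker was ITGAM, with 0.446, 0.659 and 0.983 CPM in CD133-positive libraries and 0 counts in both controls, and it passed the filter through the CD133-positive libraries alone. The 7 lymphocyte markers had 0 counts throughout, and the 7 endothelial and erythroid markers, 4 of them at 0 in all libraries, summed to 2.27 to 4.18 CPM in CD133-positive libraries and 2.37 to 2.63 CPM in controls.

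LAMP1, a main glycoprotein of the lysosomal membrane, had 109, 120.2 and 146 CPM in CD133-positive libraries, against 113 and 125 CPM in controls. LAMP2, its relative needed for autophagosome clearance and chaperone-mediated autophagy, had 138, 137 and 127 CPM in CD133-positive libraries, against 145 and 132 CPM in controls. The groups overlapped for both, with log2 differences of 0.07 (95% interval -0.42 to 0.55) for LAMP1 and -0.05 (-0.45 to 0.36) for LAMP2. With library size alone LAMP1 and LAMP2 had -0.36 and -0.44, and in TPM -0.88 and -1.01. In TPM both were lower in every CD133-positive library than in either control, as were 63.2% of all tested genes. The tetraspanin gene CD63 was the most abundant membrane member, at 624, 625 and 942 CPM in CD133-positive libraries, against 555 and 576 CPM in controls, and did not pass (log2 fold change 0.37, edgeR adjusted p = 0.437). SCARB2, an abundant protein of the lysosomal membrane that also serves as a sorting receptor, MCOLN1, a calcium release channel, and CLN3, a membrane protein mutated in juvenile Batten disease, had log2 fold changes of 0.21, 0.36 and -0.57, and none passed. Of these, CLN3 alone did not overlap, with 8.08, 10.5 and 3.25 CPM in CD133-positive libraries, against 10.6 and 11.2 CPM in controls.

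Of the 11 glycosidases edgeR called 0, with 3 higher and 0 lower at an unadjusted p under 0.05 and the same numbers called by DESeq2. Those 3 were MAN2B1, FUCA1 and GLB1. Of all tested genes edgeR called 2.20% higher and 2.40% lower. The shares were 12.2% and 13.6% at an unadjusted p under 0.05, with 8.76% and 8.16% by DESeq2. MAN2B1, the alpha-mannosidase of glycoprotein breakdown, had 28.1, 31.6 and 37.1 CPM in CD133-positive libraries, against 14.6 and 17.3 CPM in controls (log2 fold change 1.01 ± 0.22 SE, edgeR adjusted p = 0.0583, and 0.04 in TPM). FUCA1, the alpha-fucosidase, had 19.5, 16.9 and 23.3 CPM in CD133-positive libraries, against 10.1 and 10.1 CPM in controls (0.97, adjusted p = 0.0728, and 0.02 in TPM). GLB1, the beta-galactosidase whose activity is read as a senescence stain, had 130.3, 151 and 156 CPM in CD133-positive libraries, against 87.5 and 88.5 CPM in controls (0.73, adjusted p = 0.0728, and -0.22 in TPM). The groups did not overlap for any of these 3 genes, nor did they for MANBA and HEXA. MANBA, the beta-mannosidase, had 39.0, 36.2 and 93.0 CPM in CD133-positive libraries, against 34.7 and 32.7 CPM in controls (0.73, and -0.34 in TPM). HEXA, the alpha subunit of hexosaminidase, had 61.5, 74.6 and 121 CPM in CD133-positive libraries, against 58.2 and 56.4 CPM in controls (0.58, and -0.43 in TPM). In both genes library 3 was the highest and libraries 1 and 2 lay close to the controls.

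IDUA, the iduronidase of heparan and dermatan sulfate breakdown, was low, with 0.724, 0.476 and 0.151 CPM in CD133-positive libraries, against 0.772 and 1.81 CPM in controls. All CD133-positive libraries lay under both controls, and its log2 fold change of -1.49 had an SE of 0.86 (edgeR adjusted p = 0.336). NEU1, a sialidase, had 23.8, 25.7 and 68.6 CPM in CD133-positive libraries, against 36.2 and 46.3 CPM in controls, so that library 3 lay on the other side of the controls from libraries 1 and 2. The glycosidases GLA, GUSB, GAA and NAGLU also overlapped between groups, with log2 fold changes of -0.31 to 0.33. GUSB is uncertain, because 14 copies or pseudogenes are listed under GUSB names and 11 of them had counts.

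The sulfatases and the 2 remaining protein and thioester hydrolases held no call, whether by edgeR, by DESeq2 or at an unadjusted p under 0.05 (0 of 4 and 0 of 2). Over all tested genes the shares higher and lower were 2.20% and 2.40%, 8.76% and 8.16%, and 12.2% and 13.6% in that order. IDS, the iduronate sulfatase, was the most abundant sulfatase, at 168, 148 and 156 CPM in CD133-positive libraries, against 114 and 126 CPM in controls (log2 fold change 0.39, 95% interval -0.03 to 0.81). ARSA, which acts on sulfatide, had 6.69, 6.56 and 9.08 CPM in CD133-positive libraries, against 4.42 and 5.56 CPM in controls. Neither overlapped between groups. ARSB and the heparan sulfamidase gene SGSH did overlap (-0.39 and -0.04), as did the peptidase gene TPP1 (-0.27) and the depalmitoylating enzyme gene PPT1 (-0.20).

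Of the 6 lipid hydrolases and activators edgeR called 0, with 1 higher and 1 lower at an unadjusted p under 0.05, and DESeq2 called 0 higher and 1 lower. Over all tested genes edgeR called 2.20% higher and 2.40% lower. The shares were 12.2% and 13.6% at an unadjusted p under 0.05, with 8.76% and 8.16% by DESeq2. ASAH1 encodes acid ceramidase, which splits ceramide into sphingosine and fatty acid, and had 62.7, 72.01 and 87.8 CPM in CD133-positive libraries, against 129.8 and 129.6 CPM in controls. All CD133-positive libraries were lower (log2 fold change -0.81 ± 0.20 SE, edgeR adjusted p = 0.0741). ASAH1 was called lower with library size alone (-1.24, edgeR adjusted p = 0.0450) and in TPM (-1.75, limma-trend adjusted p = 0.0355). PSAP, the precursor of the saposins that present lipids to these enzymes, was the most abundant of the class, at 971, 1102 and 688 CPM in CD133-positive libraries, against 559 and 583 CPM in controls. Its log2 fold change was 0.69 ± 0.27 SE (edgeR adjusted p = 0.176) and -0.30 in TPM. GM2A, the GM2 activator, did not overlap (0.33, and -0.60 in TPM), while SMPD1, LIPA and GRN, which encode acid sphingomyelinase, acid lipase and progranulin, did (0.08, 0.17 and 0.33).

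None of the 3 transcription factors was called by edgeR or DESeq2, and 0 had an unadjusted p under 0.05. TFEB had 2.67, 1.83 and 0 CPM in CD133-positive libraries (48, 50 and 0 counts), against 0.564 and 0.630 CPM in controls (19 and 23 counts). Libraries 1 and 2 were above the controls and library 3 had no count, which gives a log2 fold change of 1.34 ± 1.39 SE (edgeR adjusted p = 0.599) and 1.90 without library 3 (0.0296). TFE3 had 41.1, 41.4 and 17.7 CPM in CD133-positive libraries, against 26.6 and 23.2 CPM in controls. The same split appeared, with a log2 fold change of 0.43 ± 0.39 SE (edgeR adjusted p = 0.547, -0.51 in TPM) and 0.73 without library 3 (0.00494). MITF had 10.7, 8.24 and 2.50 CPM in CD133-positive libraries, against 16.6 and 10.98 CPM in controls. The groups did not overlap for MITF, but the nearest libraries were at 10.7 and 10.98 CPM. Its log2 fold change of -0.94 ± 0.57 SE did not pass (edgeR adjusted p = 0.355), nor did -0.55 without library 3 (0.137). Within each library MITF made up 13.6%, 11.1% and 9.03% of the summed TPM of these 3 factors in CD133-positive cells, against 29.8% and 24.2% in controls.

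Among 23 tested genes that control TFEB by way of the Rag GTPases and mTORC1, 1 was called higher and 2 lower (median log2 fold change -0.10). These counts stood beside 2.20% and 2.40% of all tested genes. RRAGD, a Rag GTPase gene that is itself known as a TFEB and MITF target, had 5.68, 4.03 and 6.50 CPM in CD133-positive libraries, against 28.5 and 37.4 CPM in controls (log2 fold change -2.61, edgeR adjusted p = 0.0159). FNIP2, the partner of folliculin in acting on RagC and RagD, had 7.19, 8.06 and 4.24 CPM in CD133-positive libraries, against 31.9 and 32.5 CPM in controls (-2.30, adjusted p = 0.0249). RRAGA, which encodes RagA, had 94.6, 90.5 and 105.1 CPM in CD133-positive libraries, against 37.4 and 26.6 CPM in controls (1.60, adjusted p = 0.0251). RRAGA lost its call with library size alone (1.19, adjusted p = 0.0646) and in TPM (0.64, 0.274). In all 3 genes the groups lay well apart.

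Among the endogenous inhibitors of cathepsins, 5 of 11 genes were tested, 1 was called higher and 0 lower, and the median log2 fold change was 0.58. At an unadjusted p under 0.05, as in DESeq2, 2 were higher and 1 lower. Of all tested genes edgeR called 2.20% higher and 2.40% lower. The shares were 12.2% and 13.6% at an unadjusted p under 0.05, and 8.76% and 8.16% by DESeq2. CSTA, the cytosolic stefin A, had 8.92, 6.01 and 15.8 CPM in CD133-positive libraries, against 0.772 and 0.822 CPM in controls. It was 12.7-fold higher (log2 fold change 3.67 ± 0.53 SE, edgeR adjusted p = 0.0264). CST3, which encodes the secreted cystatin C, and CSTB, stefin B, had log2 fold changes of 1.10 and -1.28 that did not pass (edgeR adjusted p = 0.0572 and 0.0771).

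Genes of the lysosome outside the 46 were counted in the same fit. Of all tested genes edgeR called 2.20% higher and 2.40% lower. The shares were 12.2% and 13.6% at an unadjusted p under 0.05, and 8.76% and 8.16% by DESeq2. Of 27 other hydrolases 1 was called higher and 0 lower (6 and 1 at an unadjusted p under 0.05, 5 and 1 by DESeq2), which was GALC, the galactosylceramidase (log2 fold change 1.70, edgeR adjusted p = 0.0301). It lost its call with library size alone (1.28, adjusted p = 0.0706) and in TPM (0.61, 0.253). Of 30 membrane and transport genes 0 were called higher and 2 lower (2 and 8 unadjusted, 0 and 4 by DESeq2): OSTM1, the partner of the chloride exchanger CLCN7 (-1.34, adjusted p = 0.0220), and MFSD8, a lysosomal membrane gene mutated in a neuronal ceroid lipofuscinosis (-1.20, 0.0365). Among 19 tested subunits of the proton pump, 0 were higher and 2 lower (1 and 6 unadjusted, 1 and 5 by DESeq2), ATP6V1B2 (-0.86, adjusted p = 0.0447) and ATP6V0A2 (-0.96, 0.0477).

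In the mannose 6-phosphate pathway 0 of 20 genes were called higher and 1 lower (1 and 2 unadjusted, 0 and 1 by DESeq2). It was GNPTAB, the transferase that makes the tag (log2 fold change -1.34, edgeR adjusted p = 0.0388). The abundant M6PR, a mannose 6-phosphate receptor, and VPS35, a retromer subunit, had -0.47 and -0.90 and did not pass. Among 37 autophagy genes 0 were called higher and 2 lower (0 and 6 unadjusted, 0 and 5 by DESeq2). They were PIK3C3, the class III lipid kinase (-1.19, adjusted p = 0.0470), and OPTN, an autophagy receptor (-0.87, 0.0479). In all, 3 of the 161 tested genes in these 7 lists were higher and 9 lower, beside 2.20% and 2.40% of all tested genes. The list medians lay between -0.10 and 0.58. Without CD133-positive library 3 the numbers were 27 and 37, and edgeR called 0 of these genes in each of the other 4 fits with 1 library left out, where 4 to 12 were higher and 16 to 25 lower at an unadjusted p under 0.05 and DESeq2 called 3 to 7 higher and 3 to 15 lower. Over all genes the edgeR fit without CD133-positive library 3 called 15.4% higher and 16.8% lower. Without CD133-positive library 1 or 2, 23.5% and 24.0% of all genes had an unadjusted p under 0.05 in either direction. In those fits DESeq2 called 6.24% and 6.79% of all genes higher and 6.27% and 5.51% lower. With library size alone ATP6V1B2, ATP6V0A2, GNPTAB and PIK3C3 lost their calls too, and with TPM ATP6V1B2, ATP6V0A2 and PIK3C3.

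**Figure D4:**
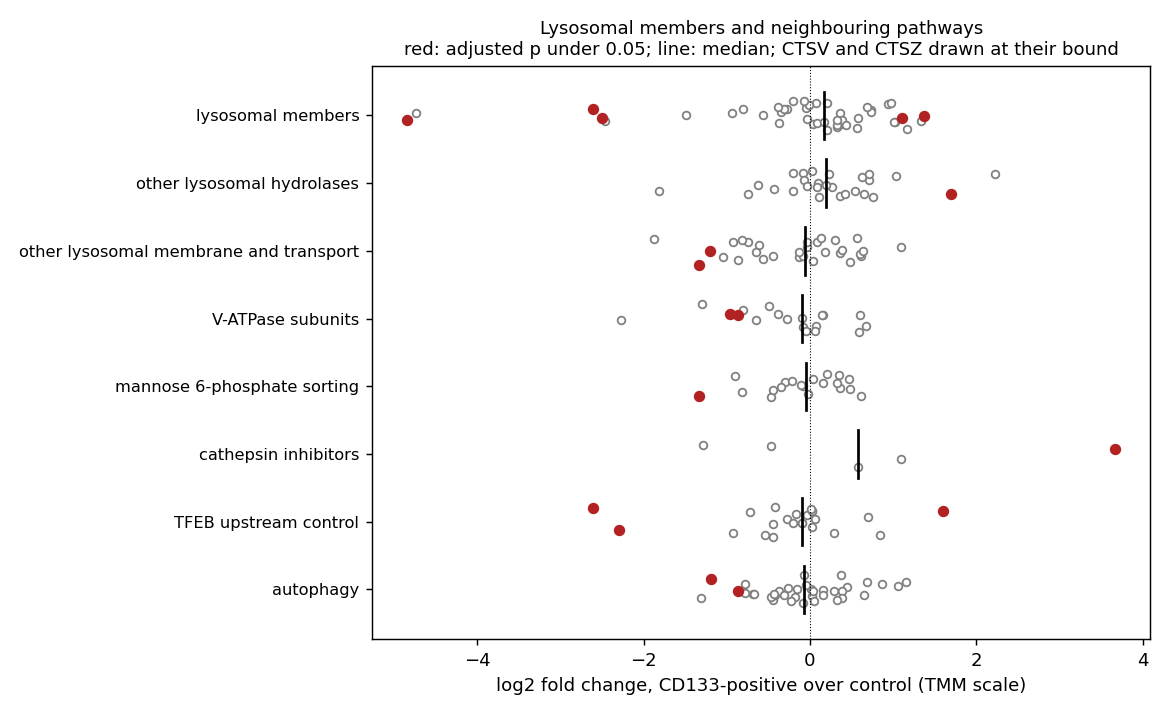
Log2 fold changes on the TMM scale, CD133-positive over control, for the lysosomal members and 7 neighbouring lists. Each point is a gene, red if edgeR's adjusted p was under 0.05, and bars mark medians. CSTA at 3.67 and RRAGD at -2.61 are the called genes farthest out in the neighbouring lists. With TPM the medians of the 7 lists lay between -1.03 and -0.12.

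CD133-positive library 3 differed from libraries 1 and 2 in many members. Against their mean, 10 members were at least 0.5 higher on the log2 scale (CD63, CTSB, CTSC, CTSK, CTSL, CTSS, GLA, HEXA, MANBA and NEU1) and 13 at least 0.5 lower (MCOLN1, CLN3, CTSA, CTSD, IDUA, NAGLU, ARSB, SGSH, PSAP, GRN, TFEB, TFE3 and MITF). The G+C content of their transcripts was 38.2% to 55.6% with a median of 50.2% in the first set and 41.4% to 68.3% with a median of 59.8% in the second. Across 42 members the difference correlated with G+C content at Pearson's r = -0.35 and Spearman's rho = -0.38, and across 12651 tested protein-coding genes at -0.14 and -0.13. These are descriptions over genes that share the same libraries. Transcript length gave -0.03 and -0.05 over the members and -0.19 and -0.21 over all. The part of G+C content in the members' differences between groups was not tested.

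**Figure D5:**
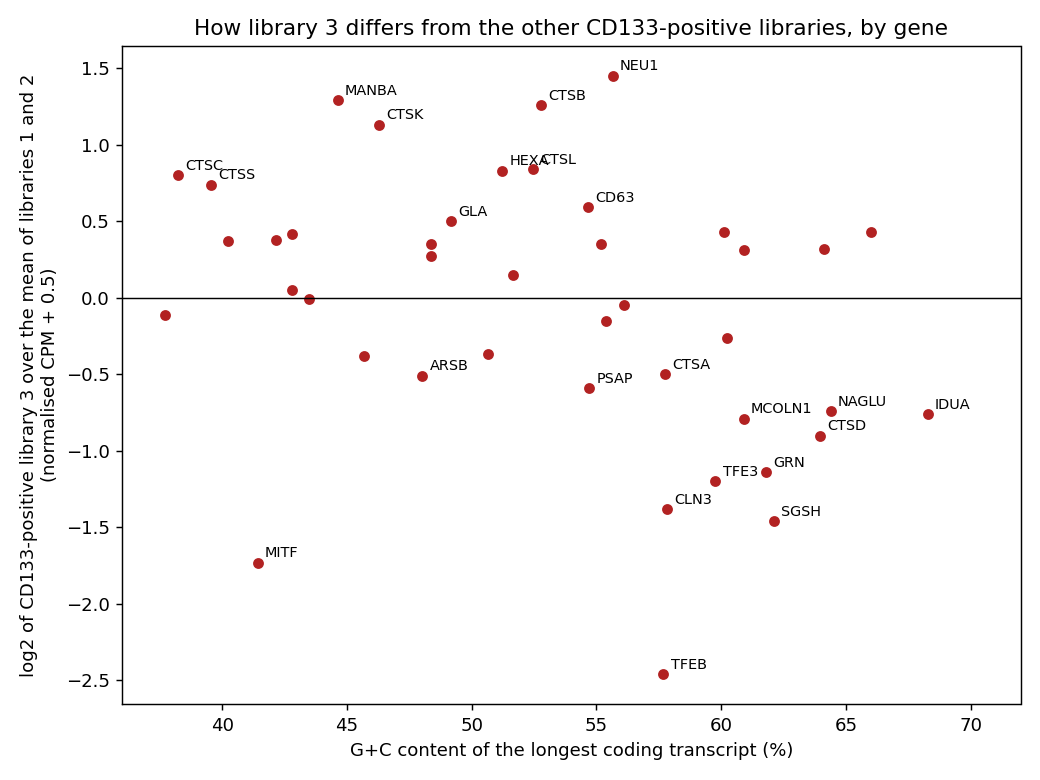
Difference of CD133-positive library 3 from the mean of libraries 1 and 2 (vertical axis, log2 of normalised CPM + 0.5) against the G+C content of the longest coding transcript (horizontal axis, percent) for 42 members. Points are genes, named where the difference is 0.5 or more in size, and the named genes below 0 lie mostly on the right of the plot, with MITF, ARSB and PSAP as exceptions.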

How the data were processed

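Total RNA of 5 U87 MG libraries was extracted with TRIzol and sequenced after a stranded preparation, per the labels' protocols. StringTie and GRCh38 are named, per the submitters' processing notes. The aligner, like the strand setting of the counting, is not given in the sources used here, so overlapping and antisense genes may share counts. The authors deposited an estimated count per gene as whole numbers, with FPKM and TPM values, per the file headers. FPKM was not used, and TPM served for shares within a library and as an alternative.

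Counts were fitted with edgeR 4.0.16 in R 4.3.3 (filterByExpr, TMM, robust quasi-likelihood F test, group as the single term) over 16304 genes, with Benjamini-Hochberg adjustment over all of them and a threshold of 0.05. CPM values are TMM-normalised, and the SE was taken as the size of the log2 fold change over the root of F. Alternatives used RLE scaling, library size alone, no filter, DESeq2 1.42.0, limma-trend (limma 3.58.1) on log2(TPM + 1), a replicate block and each library left out.

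Lowest chi-square per degree of freedom between libraries was 20.0, so every pair differed by more than counting error. That value cannot show whether libraries came from the same culture or RNA. Of the table's genes 44698 matched RefSeq identifiers of GRCh38.p14, the source of coordinates and promoters. Named with full values were called members, members without overlap and a log2 fold change of at least 1 in size, the transcription factors, LAMP1, LAMP2, CTSB and CTSD. Each list contributed at most 4 called genes, by adjusted p, or its 2 most abundant if fewer than 2 were called; some genes of the other hydrolases are not reported here. CTSL, CTSA, CTSC, FUCA1, GLB1, MANBA, HEXA, CLN3, NEU1, CD63, IDS, ARSA, ASAH1, PSAP, ITGAM and the neighbours of CTSS were singled out after their values were seen. The members and lists were chosen with earlier results of these data known.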

Additional observations from a re-analysis of the deposited data

How the results depend on the processing

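Counts of all genes called (359 higher, 392 lower) became 113 higher with library size alone, 1429 and 1331 with DESeq2, 94 and 1500 with TPM, 192 and 219 with the replicate block, 0 to 2477 and 0 to 2695 with 1 library left out. With DESeq2 they were 991, 1057, 2520, 308 and 299 higher and 997, 858, 2693, 138 and 140 lower without CD133-positive library 1, 2 or 3 or control 2 or 3. Members called (2 higher, 3 lower) became 0 higher with library size alone, 7 and 6 with DESeq2, 0 and 7 with TPM, 0 higher with the replicate block (CTSK, CTSS and CTSV stayed lower), 0 to 13 and 0 to 9 with 1 library left out, and 0 to 13 and 3 to 9 with DESeq2 and 1 left out. Genes of the pathway lists called (3 higher, 9 lower) became 1 higher with library size alone, 9 and 21 with DESeq2, 1 and 15 with TPM, 4 lower with the replicate block, and 0 to 27 and 0 to 37 with 1 library left out. The members' median of 0.17 became -0.23 with library size alone, -0.63 with TPM and 0.10 to 0.18 with 1 library left out. Where a control was left out the lone control was assumed to vary like the other group. The cause of these changes was not tested. Among the members called lower with DESeq2 and with TPM are CTSV, CTSZ and CTSH, which passed the filter through the controls alone. Libraries with the same number deviated together at r = 0.067 (number 2) and 0.0964 (number 3). The 2 controls deviate from their mean by equal and opposite amounts. These values therefore cannot show whether libraries with the same number shared a culture or preparation.

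The sign turned with library size alone for LAMP1 (-0.36), CD63 (-0.08), SCARB2 (-0.23), GAA (-0.23), GUSB (-0.06), NAGLU (-0.31), IDS (-0.01), SMPD1 (-0.30), LIPA (-0.23) and GM2A (-0.09). With TPM it turned for LAMP1 (-0.88), CD63 (-0.62), SCARB2 (-0.75), MCOLN1 (-0.31), CTSB (-0.04), CTSC (-0.06), GAA (-0.52), GLB1 (-0.22), GUSB (-0.54), HEXA (-0.43), NAGLU (-0.97), MANBA (-0.34), IDS (-0.25), ARSA (-0.28), SMPD1 (-0.82), LIPA (-0.79), PSAP (-0.30), GM2A (-0.60), GRN (-0.63) and TFE3 (-0.51). It turned for CTSA with RLE scaling and DESeq2 (0.01), and with the replicate block for NAGLU (-0.17), NEU1 (0.04) and TFEB (-0.51). With 1 library left out, values crossed 0 for LAMP1 (-0.06 to 0.15), LAMP2 (-0.13 to 0.01), MCOLN1 (-0.12 to 0.80), CTSA (-0.18 to 0.14), GAA (-0.19 to 0.72), NAGLU (-0.14 to 0.25), NEU1 (-0.74 to 0.18), SGSH (-0.54 to 0.41) and SMPD1 (-0.07 to 0.23). Members below about 5 CPM, such as IDUA, SGSH, TFEB, MCOLN1 and GAA, had few counts, so depth limits what can be said of them.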
